A study of Mus musculus with 8 samples.

Results

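The E protein genes Tcf3, Tcf4 and Tcf12 and the Id genes Id1, Id2 and Id3 were followed through B-cell development in mouse bone marrow. The 6 genes were chosen by symbol from the 22298 genes of the mRNA table, and all 6 were found there. The cells came from wild type female C57BL/6 mice aged 8 to 10 weeks, untreated, and live cells were sorted by their surface. Pro-B cells were taken as B220+IgM-CD43+, pre-B cells as B220+IgM-CD43-, and immature B cells as B220+IgM+CD43-. A higher level of B220 (B220hi) set mature B cells apart from the immature ones. Each of the 4 stages was represented by a single pool from 3 mice, which gave 1 long RNA library after rRNA depletion and 1 small RNA library. No stage had a second library, so no difference below has a replicate check and no p-value is given. The gates used B220, IgM and CD43, and no further B-cell marker is named in the study's methods.

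E proteins are helix-loop-helix transcription factors that pair with each other or with tissue-specific partners and bind short DNA motifs called E-boxes. Id proteins pair with E proteins but lack the part that touches DNA, so they hold E proteins off their targets. Tcf3, which encodes the E2A proteins, is needed for commitment to the B lineage and for immunoglobulin gene rearrangement. Tcf12 encodes HEB, a partner of the E2A proteins in lymphocyte precursors. Tcf4 is expressed in B cells and is the defining factor of plasmacytoid dendritic cells, which also carry B220. Id2 is high in natural killer cells and other innate lymphocytes, and Id3 responds to antigen receptor signals in lymphocytes.

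Counts were the estimated read counts of the mRNA table, rounded to whole numbers, and CPM scales them to the summed counts of that table in the same library. The pro-B and mature B libraries held 867920 and 849350 mRNA counts, and the pre-B and immature B libraries held 240231 and 223495, so the middle stages were measured with fewer counts. Intervals are exact 95% intervals for counting error only. Between 63.3% and 73.9% of the whole counts above 0 were even. If both reads of a pair were counted, which was not tested, intervals from single counts are too narrow, and some are also given with counts divided by 2. All 10 B-cell markers examined, led in pro-B by Pax5, Ebf1 and Cd79b, were above 0 in every library, with summed levels of 5486 CPM in pro-B, 6145 in pre-B, 8637 in immature B and 8204 in mature B.

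Promoter windows were searched for E-boxes, the motif that E proteins bind, and the sequence of 1 miRNA measured in the same cells is shown with them. The E-box CAGCTG, and CAGGTG with its reverse complement CACCTG, were searched on both strands of the RefSeq promoter windows of build GRCm38.p6, which run from 250 bases before to 50 after the start. Windows on the chromosome that carries Tcf4 were left out of the search, and Id1 had no window. CAGCTG was found in 16.3% of 32851 windows searched, CAGGTG in 20.2% and either in 32.9%. There were 6 windows for Tcf3, Tcf12, Id2 and Id3, of which 2 held CAGCTG and 0 held CAGGTG. The stretches that hold the E-box, shown in capitals, lie 240 bases before a Tcf12 start at chr9:72112042-72112069 and 196 bases before the Id2 start at chr12:25096271-25096300, both on the minus strand.
Tcf12: agatgctgccCAGCTGcgtccccgtcgc
Id2: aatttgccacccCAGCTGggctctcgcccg
The mature miRNA mmu-miR-191-5p, which has been described as a regulator of Tcf3, maps to chr9:108568325-108568347 on the plus strand of the same build, and its seed, bases 2 to 8, is in capitals.
mmu-miR-191-5p: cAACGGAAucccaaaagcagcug
A matching motif is a description of the letters, not a measured binding site, and target sites of the miRNA were not examined.

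Tcf3 (ENSMUSG00000020167) was most abundant in the pre-B library in CPM (in FPKM, a unit taken up after the single genes, it was highest in pro-B) and dropped at the immature stage on both scales. Its counts were 546 in pro-B, 220 in pre-B, 70 in immature B and 200 in mature B, which correspond to 629, 916, 313 and 235 CPM. The pre-B level exceeded the pro-B level 1.46-fold (95% interval 1.24 to 1.71), short of the 2-fold limit used here to call a change. From pre-B to immature B, Tcf3 fell 2.92-fold (2.22 to 3.88). The immature and mature levels lay close together, with a mature-to-immature ratio of 0.752 (0.570 to 1.002), and over the whole course the mature level was 2.67-fold below the pro-B level (2.27 to 3.16). In CPM the order of Tcf3 levels was pre-B, pro-B, immature B and mature B, with an interval for the last pair that included 1, and in FPKM it was pro-B (46.5), mature B (17.9), pre-B (13.6) and immature B (4.59).

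Tcf4 (ENSMUSG00000053477) had its highest level in pro-B and was low in every later library. The counts were 364, 22, 20 and 122 from pro-B to mature B, or 419, 91.6, 89.5 and 144 CPM. Tcf4 fell 4.58-fold from pro-B to pre-B (2.98 to 7.40), the largest decrease among the 5 genes with enough counts for a call at this step. Pre-B and immature B did not differ beyond counting error in CPM, with a ratio of 0.977 (0.506 to 1.88), beside 1.97 and 3.41 FPKM. In CPM the mature level was 1.60-fold the immature level (0.995 to 2.72), which is within 2-fold, and it was 2.92-fold below pro-B (2.37 to 3.61). In bulk RNA, fewer cells of a type that express a gene and less RNA per cell cannot be told apart.

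Tcf12 (ENSMUSG00000032228) moved least among the E protein genes from pro-B to mature B. It had 434 counts in pro-B, 89 in pre-B, 67 in immature B and 242 in mature B, or 500, 371, 300 and 285 CPM. In CPM the level was lower at each later stage, yet each step stayed within 2-fold. The whole decline in CPM from pro-B to mature B was 1.76-fold, with a mature-to-pro-B ratio of 0.570 (0.485 to 0.668). The immature and mature levels in CPM did not differ beyond counting error, with an immature-to-mature ratio of 1.05 (0.791 to 1.38). In FPKM, Tcf12 was at 2.56 in immature B and 16.2 in mature B. That log2 ratio of 2.66 was the largest among the E protein genes at this step.

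Among the Id genes, Id3 (ENSMUSG00000007872) carried most counts and was highest in pro-B. Its counts were 106, 10, 5 and 32 from pro-B to mature B, corresponding to 122, 41.6, 22.4 and 37.7 CPM. Id3 fell 2.93-fold from pro-B to pre-B (1.53 to 6.29) and was 3.24-fold lower in mature B than in pro-B (2.17 to 4.98). The pre-B, immature and mature levels could not be ordered, since the immature-to-pre-B ratio of 0.537 had an interval from 0.144 to 1.73 and the mature-to-immature ratio of 1.68 one from 0.651 to 5.54.

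Id2 (ENSMUSG00000020644) was low in all 4 libraries, with 23 counts in pro-B, 3 in pre-B, 8 in immature B and 7 in mature B. These counts gave 26.5, 12.5, 35.8 and 8.24 CPM. Id2 passed the 2-fold limit in all 4 comparisons, on few counts. The pro-B to pre-B call was lost with DESeq2 size factors (log2 -0.91) and with a total without immunoglobulin, mitochondrial and the 50 largest genes (-0.89), and that from immature to mature B was lost in FPKM (-0.46). The pre-B to pro-B ratio was 0.471 (0.0906 to 1.56) and the immature to pre-B ratio was 2.87 (0.688 to 16.8), and both intervals included 1. The mature level was 4.34-fold below the immature level (1.38 to 14.1) and 3.22-fold below the pro-B level (1.34 to 8.87). When counts were divided by 2 to stand for read pairs, the intervals of these last ratios widened to 0.0289 to 1.17 and 0.0499 to 1.06, which include 1.

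Id1 (ENSMUSG00000042745) was barely detected. It had 2 counts in pro-B, 4 in pre-B and 0 in both immature B and mature B. A count of 0 has an exact 95% upper limit of 16.5 CPM in immature B and 4.34 CPM in mature B. The pre-B value of 16.7 CPM (4.54 to 42.6) and the immature value were thus not distinguishable at this depth. Id1 did not reach 10 counts over the 2 libraries of any comparison and was given no call.

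**Figure D1:**
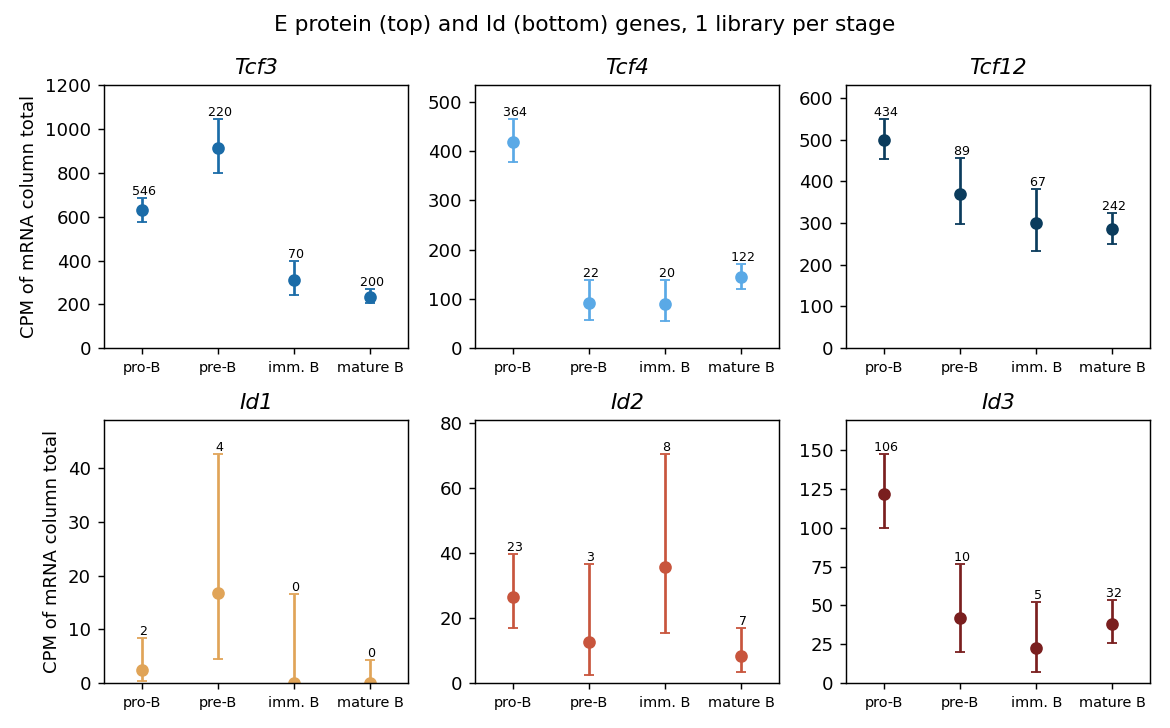
Level of each gene in CPM of the mRNA column total (y axis, linear, from 0) in the libraries of the 4 stages (x axis). Points are the 1 library per stage, bars are exact 95% Poisson intervals for counting error, and the number above each bar is the rounded count. Tcf3 peaks in pre-B at 916 CPM (a peak that FPKM does not show), Tcf4 stands out in pro-B at 419 CPM, and the Id genes rest on far fewer counts than the E protein genes.

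Read as a group, the members mostly moved downward from pro-B to mature B. Of the 6 genes, 5 reached 10 counts in each comparison. From pro-B to pre-B, 0 were higher and 3 were lower past 2-fold (Tcf4, Id2 and Id3), where 17.9% of all 9728 genes tested were higher and 27.4% were lower. From pre-B to immature B, 1 was higher (Id2) and 1 was lower (Tcf3), beside 18.4% and 18.9% of 7013 genes. From immature to mature B, 0 were higher and 1 was lower (Id2), beside 22.5% and 21.6% of 9002 genes. Between pro-B and mature B, 0 were higher and 4 were lower (Tcf3, Tcf4, Id2 and Id3), whereas 13.3% of 10327 genes were higher and 23.6% were lower. In FPKM, whose scale differs between libraries as given further on, 5 members were lower from pro-B to pre-B, and 4 were higher and 0 lower from immature to mature B. These comparisons share libraries: the high immature Id2 value enters both the increase at one step and the decrease at the next. The median gene shifted little on the same scale, by log2 -0.26, -0.01, 0.07 and -0.18 in the order given, and the 5 genes cannot be called different from the rest of the table by such counts.

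**Figure D2:**
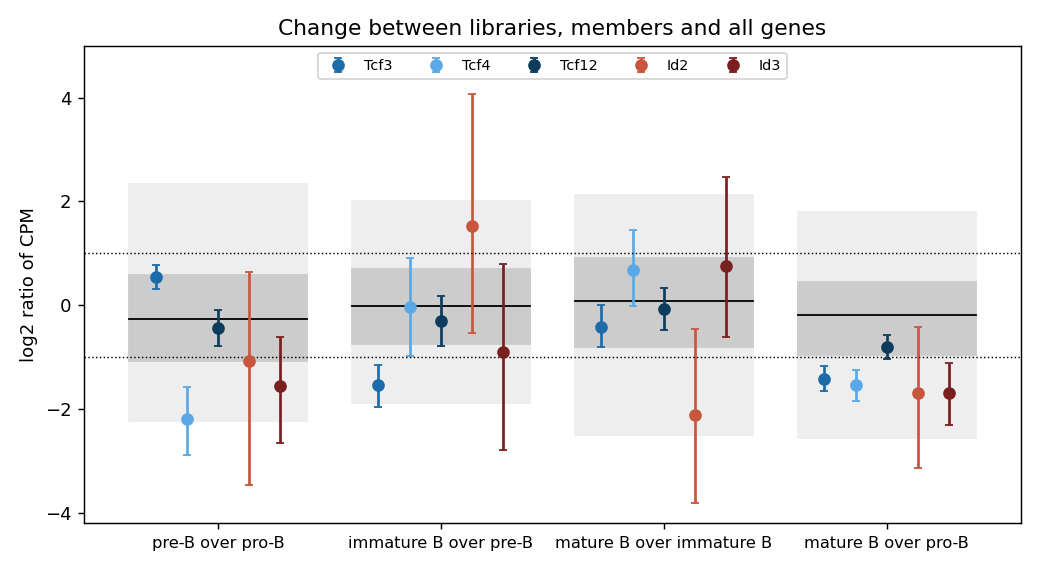
Log2 ratio of CPM (y axis) in the 4 comparisons (x axis) for the 5 genes with at least 10 counts, with exact 95% intervals for counting error. Light and dark grey boxes span the 5th to 95th and the 25th to 75th percentiles of all genes tested, black lines are their medians and dotted lines mark 2-fold. Tcf4 at -2.20 in pre-B over pro-B lies near the lower end of all genes, and the Id2 and Id3 intervals are the widest.

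Levels of different genes were compared per length, with the deposited FPKM. In pro-B the E protein genes had 46.5 (Tcf3), 46.2 (Tcf4) and 25.1 FPKM (Tcf12), and the Id genes had 0.39 (Id1), 3.33 (Id2) and 15.3 (Id3). In mature B the order among the E protein genes was Tcf3 at 17.9, Tcf12 at 16.2 and Tcf4 at 8.10 FPKM, while Id3 had 4.74, Id2 had 1.04 and Id1 was listed at 0. The make-up of the E protein sum depended on the unit. Tcf3 supplied 39.5% of the summed E protein FPKM in pro-B, 66.8% in pre-B, 43.5% in immature B and 42.4% in mature B. Tcf4 supplied 39.2% in pro-B, as much as Tcf3, and 9.72% in pre-B, 32.3% in immature B and 19.2% in mature B. Tcf12 took 21.3%, 23.4%, 24.2% and 38.4% in the same order. By counts, not divided by length, Tcf3 took 40.6%, 66.5%, 44.6% and 35.5%, Tcf4 27.1%, 6.65%, 12.7% and 21.6%, and Tcf12 32.3%, 26.9%, 42.7% and 42.9%. On both scales Tcf3 had its largest share and Tcf4 its smallest in pre-B, whereas the Tcf4 share in immature B and the step of Tcf12 from immature to mature B differed between the scales. Id3 made up 80.4% of the summed Id FPKM in pro-B and 82.0% in mature B, and 54.0% and 34.1% in pre-B and immature B.

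The E to Id balance, the summed FPKM of Tcf3, Tcf4 and Tcf12 divided by that of Id1, Id2 and Id3 within a library, favoured the E protein genes at every stage. The ratio was 6.21 in pro-B (5.18 to 7.49), 8.04 in pre-B (4.95 to 13.98), 4.87 in immature B (2.76 to 9.34) and 7.30 in mature B (5.27 to 10.4). Each interval is the exact binomial interval of the summed counts, shifted to the FPKM ratio, and leaves out the different lengths of the genes. All 4 intervals overlap, and differences in the balance between stages were not tested. The summed FPKM was 118, 20.3, 10.6 and 42.2 for the E protein genes and 18.98, 2.52, 2.17 and 5.78 for the Id genes from pro-B to mature B, so both were lowest in immature B. In CPM, the sums were 1549, 1378, 703 and 664 for the E protein genes and 151, 70.8, 58.2 and 45.9 for the Id genes, lowest in mature B. The Id genes held 8.88% of the counts of the 6 genes in pro-B (exact binomial 95% interval 7.48 to 10.4), 4.89% in pre-B (2.87 to 7.71), 7.65% in immature B (4.13 to 12.7) and 6.47% in mature B (4.64 to 8.74). The balance depends on single genes at some stages. Without Tcf4 the pro-B ratio was 3.77, and without Id2, which gave 8 of the 13 Id counts in immature B, the immature ratio was 14.3 and the highest of the 4. The order of the stages is thus not fixed by these counts.

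**Figure D3:**
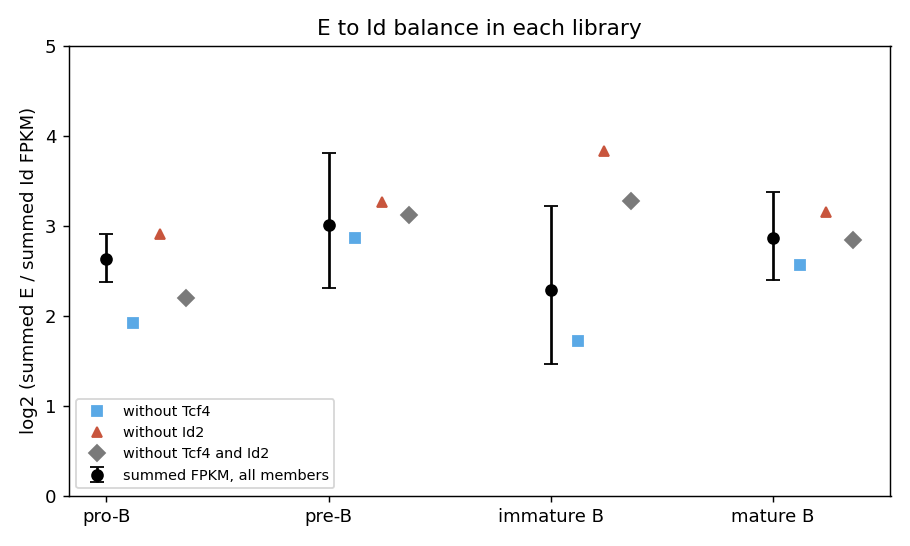
E to Id balance as the log2 ratio of summed FPKM (y axis) in each library (x axis). Black points are all 6 genes, and coloured symbols leave out Tcf4, Id2 or both. Bars are 95% intervals for counting error of the summed counts, shifted to the FPKM ratio. All values lie above 0, and leaving out Id2 lifts the immature B value from 2.28 to 3.83.

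Tcf4 was examined beside markers of cells other than B cells, since plasmacytoid dendritic cells express it. All 10 plasmacytoid dendritic cell markers were above 0 in pro-B, 2 of 10 in pre-B, 6 of 10 in immature B and 5 of 10 in mature B. Their summed levels were 418, 66.6, 179 and 84.8 CPM. The number of markers above 0 depends on depth. In CPM, 3 counts correspond to 3.46 in pro-B, 12.5 in pre-B, 13.4 in immature B and 3.53 in mature B. Cox6a2, for example, had 11.5 CPM in pro-B and 0 in pre-B. The 3 markers with most counts in pro-B were Ccr9, Siglech and Pacsin1. Siglech, a surface receptor that defines these cells in mice, had 105 counts in pro-B, 0 in pre-B, 4 in immature B and 0 in mature B. The summed marker counts were 363 in pro-B, 16 in pre-B, 40 in immature B and 72 in mature B, where Tcf4 itself had 364, 22, 20 and 122. The marker sum and Tcf4 were thus both highest in pro-B in CPM. Of the list, Upb1 and Cd300c were higher in immature B than in pro-B, and the other markers were highest in pro-B. Upb1 had 20.7 CPM in pro-B and 44.8 in immature B (18 and 10 counts), and Cd300c had 2.30 and 8.95 (2 counts in each). The part of plasmacytoid dendritic cells in the pro-B level of Tcf4 was not tested. In the pre-B and mature B libraries Siglech was at 0 while Tcf4 stood at 91.6 and 144 CPM, and other markers of the list were present there, with 14 and 40 counts for Ccr9 and 0 and 20 for Pacsin1. From pre-B to immature B the marker sum went from 66.6 to 179 CPM, on 16 and 40 counts. Tcf4 was at 91.6 and 89.5 CPM, on 22 and 20 counts, with a ratio interval of 0.506 to 1.88. In FPKM it was at 1.97 in pre-B and 3.41 in immature B. The part of plasmacytoid dendritic cells in Tcf4 at this step was not tested.

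Id2 was set beside markers of T and NK cells for the same reason. These 10 markers summed to 305 CPM in pro-B, 8.33 in pre-B, 8.95 in immature B and 13.0 in mature B. In the same order, 8, 1, 1 and 4 of 10 were above 0, numbers that again depend on depth. The leading ones in pro-B were Gzma with 106 counts, Ncr1 with 39 and Nkg7 with 38, which encode proteins of natural killer and cytotoxic cells, whereas Cd3d and Cd3e had 0 counts there and Cd3g had 2. Id2 had 23 counts in pro-B and 8 in immature B, where the list had 265 and 2 counts. The part of such cells in the level of Id2 was not tested. Among the other lists, early progenitors (led in pro-B by Flt3, Kit and Meis1) summed to 130, 24.98, 62.7 and 80.1 CPM. Of these, Ly6a was higher in mature B (56.5 CPM) than in pro-B (25.3). Conventional dendritic cell markers (led by Itgax, Flt3 and Zbtb46) summed to 147, 112, 62.7 and 16.5 CPM. Their pro-B and pre-B intervals overlapped (123 to 175 and 74.1 to 164 CPM). From pro-B to pre-B, 2 of 6 were higher past 2-fold (Zbtb46 and Xcr1) and 2 lower (Itgax and Flt3), beside 17.9% and 27.4% of all genes. Granulocyte and monocyte markers, led by Lyz2, Ngp and S100a8, were present throughout, at 1584, 1790, 1383 and 1214 CPM. Erythroid markers (led by Hbb-bs, Hba-a2 and Hba-a1) were at 419, 387, 251 and 228 CPM. Plasma cell markers (led by Xbp1, Jchain and Sdc1) were at 316, 375, 282 and 111 CPM, and basophil and mast cell markers (led by Mcpt8, Prss34 and Cpa3) lay between 8.95 and 16.7 CPM.

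**Figure D4:**
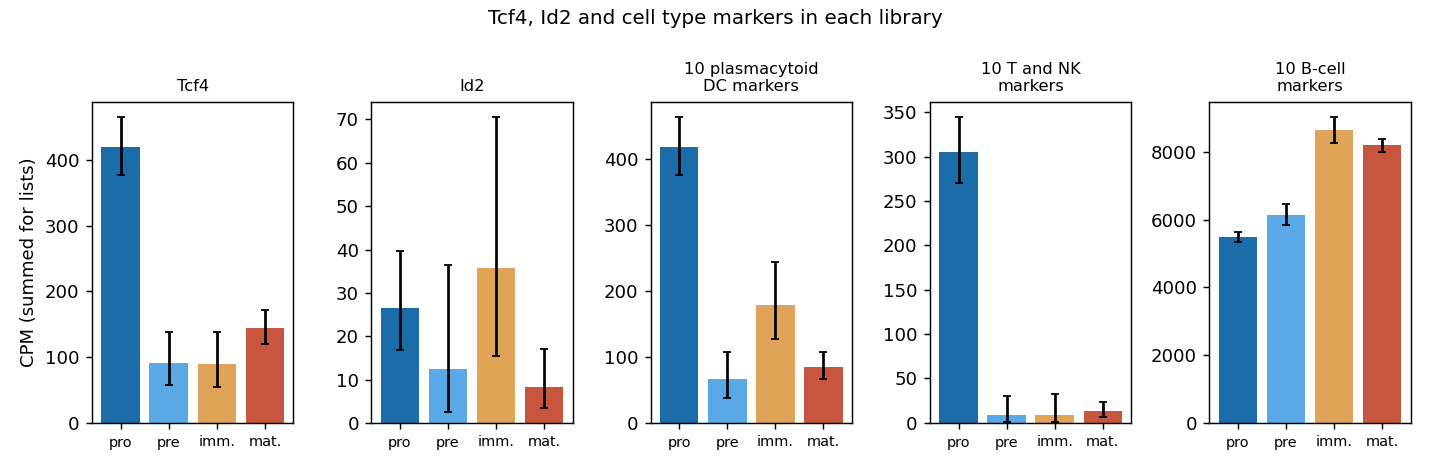
Level of Tcf4 and Id2 and summed level of the 10 plasmacytoid dendritic cell (DC), 10 T and NK cell and 10 B-cell markers (y axes, CPM, linear from 0, a scale per panel) in the pro-B, pre-B, immature (imm.) and mature (mat.) B libraries. Bars are 1 library each with exact 95% Poisson intervals. Tcf4 and the first 2 marker lists have their highest bar in pro-B, whereas the B-cell markers sum to 5486 CPM there and more in the other libraries.

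Partners of the E proteins in blood cells are few among expressed genes here. Of 8 helix-loop-helix and LIM factors, 3 reached 10 counts between pro-B and mature B, of which 2 were higher and 0 lower (13.3% and 23.6% over all genes), with a median log2 ratio of 1.09 beside -0.18 for all genes. Lmo2, a LIM protein that bridges such factors, had 54, 1, 13 and 217 counts from pro-B to mature B, or 62.2, 4.16, 58.2 and 255 CPM, and was 4.11-fold higher in mature B than in pro-B. Lyl1, a helix-loop-helix partner, was 2.13-fold higher, and Ldb1, which joins LIM proteins into complexes, stayed within 2-fold at 124 and 247 CPM. Stepwise, 0 were higher and 1 lower of 3 from pro-B to pre-B (Lmo2), 1 and 0 from pre-B to immature B (Lmo2), and 2 and 0 from immature to mature B (Lmo2 and Ldb1). The shares over all genes at these steps, given above, apply to this and the following lists.

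E proteins recruit acetyltransferases and corepressors as cofactors. Of 7, 6 passed the count minimum between pro-B and pre-B and 3 were lower, namely the acetyltransferases Ep300, at 439 and 175 CPM, and Kat2b, at 150 and 33.3 CPM, and the corepressor Cbfa2t3, at 272 and 129 CPM. From immature to mature B, 3 were higher (Ep300, Crebbp and Kat2b) and 1 was lower (Cbfa2t3) of 6, and from pre-B to immature B 0 of 5 passed in either direction. Over the whole course 1 of 6 was lower, Cbfa2t3, which fell by 1.81 on the log2 scale, and the acetyltransferase Crebbp stayed within 2-fold at 294 and 447 CPM.

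Factors known to switch on Id genes included 1 large increase. Egr3, an early response factor downstream of antigen receptors, had 10 counts in pro-B, 0 in pre-B, 14 in immature B and 242 in mature B and was 24.7-fold higher in mature B than in pro-B. Egr1, of the same family, was at 84.1, 70.8, 157 and 134 CPM, and Smad3, which relays TGF-beta signals, at 99.1, 271, 197 and 82.4 CPM. Of the 7 inducers, 1 was higher and 1 lower (Egr2, with 10 and 2 counts) between pro-B and mature B, while Id3 was 3.24-fold lower over the same interval. Stepwise, 2 of 7 were higher (Egr2 and Smad3) and 1 lower (Smad4) from pro-B to pre-B. From pre-B to immature B, 3 of 6 were higher (Egr1, Egr3 and Smad4) and 1 lower (Egr2), and from immature to mature B, 2 of 6 were higher (Egr3 and Smad4) and 1 lower (Smad3).

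Of the 18 B-lineage genes with known E protein input, 1 was higher and 7 were lower in mature B than in pro-B, with a median log2 ratio of -0.42 beside -0.18 for all genes. Dntt, which adds bases at immunoglobulin joints, had 845 counts in pro-B and 0 in the 3 later libraries, at least 78.0-fold lower in pre-B against a floor of 3 counts per library. Rag1, a subunit of the recombinase, was at 918 CPM in pro-B, 371 in pre-B and 0 in immature B, at least 27.6-fold lower at the latter step, and had 1 count in mature B. Rag1 thus fell at the step at which Tcf3 fell, and in CPM had already fallen 2.48-fold from pro-B to pre-B. At that earlier step Tcf3 was 1.46-fold higher in CPM and lower in FPKM (log2 -1.78). Rag2, of the same list, was 2.89-fold higher from pro-B to pre-B and 3.37-fold lower from pre-B to immature B. No relation between Tcf3 and these genes was tested. Blnk, an adaptor of receptor signals, fell 2.56-fold over the course. Cd79a, a chain of the B-cell receptor, was 2.06-fold higher, and its partner Cd79b was at 780, 2073, 2708 and 925 CPM. Pax5, which fixes B-cell identity, and the chemokine receptor Cxcr4 stayed within 2-fold, at 1187 and 1958 CPM and at 1093 and 1460 CPM. Stepwise, 2 of 18 were higher (Cd79b and Rag2) and 6 lower from pro-B to pre-B. From pre-B to immature B, 2 of 15 were higher (Cd79a and Irf8) and 3 lower (Rag1, Rag2 and Blnk), and from immature to mature B, 3 of 14 were higher (Foxo1, Irf4 and Blnk) and 3 lower (Rag2, Vpreb3 and Cd79b).

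The deposited FPKM and CPM give different pictures of the steps into and out of the middle stages. The mRNA table took 23.7% and 23.5% of the counts of the mRNA and lncRNA tables together in pro-B and mature B, and 6.48% in both pre-B and immature B. FPKM was scaled by the authors to fragments mapped to reference genes, and the part of this difference in the gap between the scales was not tested. The median log2 ratio over all genes was -2.09 in FPKM for pre-B over pro-B and 1.89 for mature over immature B. Tcf3 had 46.5 FPKM in pro-B and 13.6 in pre-B, a log2 ratio of -1.78, where CPM gave 0.54. Relative to the median gene, Tcf3 was higher in pre-B on both scales, by 0.31 in FPKM and 0.80 in CPM. Tcf4 was below the median gene on both, by log2 -2.46 and -1.93, and so was Id3, by -1.40 and -1.29.

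**Figure D5:**
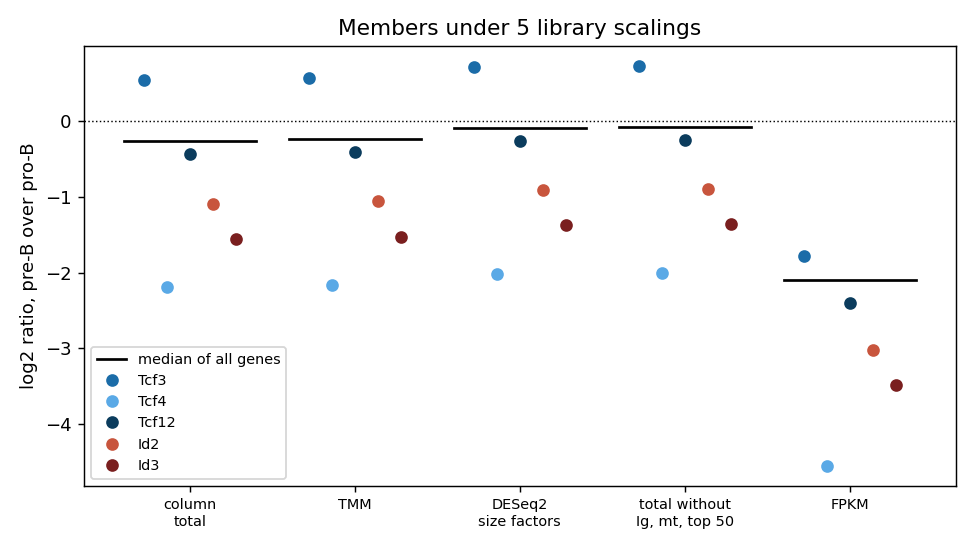
Log2 ratio of pre-B over pro-B (y axis) for 5 genes under 5 ways of scaling the libraries (x axis), with the median of all genes tested as a black line. Under the 4 scalings of counts Tcf3 is above 0 and Tcf4 is the lowest at about -2, and under FPKM all 5 genes and the median gene shift down together.

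Tcf4 also differed in its counts per unit of FPKM, which reflects the library scale and the length of the transcripts counted. This quotient was 7.86 in pro-B, 11.2 in pre-B, 5.93 in immature B and 15.1 in mature B. Relative to the median gene it was 1.97-fold higher in mature B than in pro-B, a size of shift reached by 4.83% of 5505 genes, and 2.53-fold higher in mature than in immature B, a size reached by 3.37% of 2049 genes. Accordingly Tcf4 was 5.71-fold lower in FPKM between pro-B and mature B and 2.92-fold lower in CPM. Tcf3 showed no such shift between pro-B and mature B, at 0.979-fold of the median gene, nor did Id3 at 0.999-fold. The immature B quotient of Tcf4 rests on 20 counts. Transcripts were not counted separately in the mRNA table, so whether Tcf4 transcripts differ between libraries was not tested.

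The genes whose course was most like each member over the 4 libraries were found among 4739 genes with at least 100 counts, by the largest difference in centred log2(CPM + 1). For Tcf3 they were Psmb6 (0.15), Nudt4 (0.17) and H6pd (0.22). Those for Tcf4 were Septin9 (0.11), Plekha2 (0.18) and Mcm2 (0.21). Tcf12 had the closest matches, Tubb5, Wwp2 and Igbp1, each at 0.04, and Id3 was followed by Mib1 (0.17), Tex2 (0.19) and Med20 (0.21). With 4 points per gene such likeness is a description.

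Other readouts of the 6 genes were sparse. Of 1005 circRNAs, which are RNAs closed by a back-splice, 4 had a member as the parental gene by gene identifier, with 20 back-spliced reads between them, and each was seen in 1 library. A Tcf12 circRNA of the exon and intron class (novel_circ_000176, chr9:71881504-71898456, minus strand) had 6 reads in pro-B, and 1 antisense to Tcf12 (novel_circ_000241, chr9:72064945-72067033, plus strand) had 4 in immature B. One antisense to Tcf4 (novel_circ_000383, minus strand) had 6 reads in pro-B, the library in which Tcf4 was highest. The remaining one was antisense to Tcf3 (novel_circ_000878, chr10:80411178-80411399, plus strand), with 4 reads in immature B. The circRNA totals were 1370 to 1751 back-spliced reads per library, and 0 reads elsewhere have an exact 95% upper limit of 3.69 reads. These coordinates are as deposited, and 96.6% of 963 circRNAs lay within the GRCm38.p6 span of their parental gene, although the submitters' processing notes name mm9.

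In the small RNA libraries mmu-miR-191-5p took 14.4% of miRNA tags in pro-B, 21.2% in pre-B, 19.5% in immature B and 11.6% in mature B. It was highest in pre-B and lowest in mature B. Tcf3 stood at 629, 916, 313 and 235 CPM and at 46.5, 13.6, 4.59 and 17.9 FPKM in the same order, and no relation between the miRNA and Tcf3 was tested.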

How the data were processed

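Rounded counts came from the estimated counts of the mRNA table, which the authors made with fastp, rRNA removal, HISAT2 and StringTie, together with the deposited FPKM, scaled by the authors to fragments mapped to reference genes. The deposited circRNA counts (find_circ, given also as RPM) and miRNA counts (given also as TPM) are raw. The submitters' notes name mm9 and Bowtie 0.12.2. All 8 libraries were used, grouped by the stage in their labels, and 0 sample columns stayed unmapped.

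CPM used column totals. A change was called past 2-fold with at least 10 counts over the 2 libraries and counts below 3 set to 3. Ratios carry Clopper-Pearson intervals at 95%, and levels Poisson intervals. No p-value was computed, since a model between 2 single libraries cannot estimate their spread. Scaling alternatives used edgeR 4.0.16 (TMM) and DESeq2 1.42.0 in R 4.3.3, and the rest Python 3.11.15 with scipy 1.17.1, pandas 2.3.3, numpy 2.4.6 and matplotlib 3.10.9. The calling step was tested on simulated data with counting error only. Changes were planted there in genes expected to hold at least 10 counts in each library. Spread between samples and detection of changes at fewer counts were therefore not covered. The 6 genes and the pathway and marker lists were chosen with earlier results of these data known. Named from each pathway list were the 3 genes of highest summed CPM and up to 4 more past 2-fold between pro-B and mature B with at least 50 counts in 1 of these libraries, and from marker lists the 3 with most pro-B counts. Cd3d, Cd3e, Cd3g, the remaining genes of short counts and the Rag1 and Rag2 comparisons were chosen after their values were seen.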

Additional observations from a re-analysis of the deposited data

Results flagged for a closer look

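The lncRNA table, which the comparisons above did not use, lists 10 transcripts named after Tcf3, Tcf4, Tcf12 or Id3, and 3 of them were above 0 in some library. The Tcf3 transcript ENSMUST00000129027 had 41.58 estimated counts in pro-B and 22.17 in mature B and was at 0 in pre-B and immature B, while Tcf3 in the mRNA table had its highest CPM in pre-B. The Tcf4 transcript ENSMUST00000155695 had 3.13 estimated counts in pro-B and ENSMUST00000201157 had 5.78 in immature B. They were singled out because they lie outside the mRNA table and exceed the floor of 3 counts used here. How reads were divided between the 2 tables was not tested.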

How the results depend on the processing

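The call of Tcf3 as lower from pre-B to immature B and those of Tcf4 and Id3 as lower from pro-B to pre-B did not change direction under any scaling of counts. With TMM, DESeq2 size factors, unrounded counts or a total without immunoglobulin, mitochondrial and the 50 largest genes, 20 of 20 changes stayed within their counting intervals, and in FPKM 10 of 20 moved outside. In FPKM 5 members were lower from pro-B to pre-B, and 4 were higher and 0 lower from immature to mature B, beside 3.09% of all genes higher and 78.8% lower at the first of these steps and 74.0% higher and 3.91% lower at the other. Id2 from pro-B to pre-B came within 2-fold with DESeq2 size factors (log2 -0.91) and the reduced total (-0.89). With counts divided by 2 to stand for read pairs, an alternative chosen after seeing the data, 0 members were higher from pre-B to immature B. The floor was kept at 3 counts in this setting. Dividing both counts by 2 leaves a ratio as it is, so Id2, with 3 counts in pre-B and 8 in immature B, lost its call through the floor alone. Without a count minimum, 36.1% of genes were higher from pro-B to pre-B, 12.2% lower from pre-B to immature B and 40.6% lower from immature to mature B. These shares include genes with 3 counts or fewer in both libraries, whose ratio is fixed by the floor and the library totals. Such a gene enters at log2 1.85 for pre-B over pro-B and -1.93 for mature over immature B, past 2-fold by depth alone. With a minimum of 50, 11.7% were higher at the first step, 10.6% higher and 11.2% lower at the second and 13.6% lower at the third. The log2 balance, 2.63, 3.01, 2.28 and 2.87 from pro-B to mature B, was 3.36, 4.28, 3.59 and 3.85 from counts not divided by length. It was 1.92 in pro-B without Tcf4, 2.91 in pro-B and 3.83 in immature B without Id2, and 2.19 and 3.27 without both. As a difference of mean log2(FPKM + 1) it was 3.07 in pro-B, 1.81 in pre-B, 1.46 in immature B and 2.66 in mature B. Unlike the ratio, this difference depends on the FPKM scale of each library, because of the added 1. No paired analysis was possible because each stage has 1 library, and for the same reason none could be left out in turn. The depth of the pre-B and immature B libraries limits Id1, Id2 and Id3, each with 10 counts or fewer there.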
